A study of Rattus norvegicus with 10 samples.

Results

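The genes described here encode 9 enzymes that turn squalene, an open-chain hydrocarbon, into cholesterol by closing and trimming the sterol ring: Sqle, Lss, Cyp51, Tm7sf2, Msmo1, Nsdhl, Hsd17b7, Sc5d and Dhcr7. They were taken by symbol from a table of 12555 genes, each matched 1 row, and all 9 were expressed highly enough to be tested. Rat liver RNA was sequenced in 10 libraries, 5 labelled as coming from a normal diet (normal 1 to 5) and 5 from a diet with calories restricted by 30% through gestation (restricted 1 to 5). All are labelled wild type. The labels give liver as the tissue and hepatocyte as the cell type but name a cell line as the source, while the design text describes liver tissue. The library names, AGA and SGA, are taken to stand for the normal and restricted groups by their titles. Strain, age, sex, litter, fasting and time of collection were not stated in the sources.

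Cholesterol is built from acetyl-CoA by the mevalonate pathway, which ends in squalene. Squalene is then oxidised, folded into lanosterol and cut down to cholesterol on the membranes of the endoplasmic reticulum, in steps of which many use oxygen, NADPH or both. Liver is a main site of this synthesis, and the transcription factor SREBP2 is known to switch on the genes of the whole chain together when sterols in that membrane are scarce. Intermediates of the ring steps also have signalling roles, and the last of them is the precursor of vitamin D in skin.

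The total count per library ran from 14936156 to 22104957. Hepatocyte markers were abundant in every library. Over 8 markers the summed level was 168006 to 200186 CPM (counts scaled to a common TMM-adjusted library size) in the normal group. In the restricted group it was 150078 to 228001. Of the 8, Ttr alone fell in edgeR (adjusted p under 0.05), where 2.22% of all genes were called lower. In DESeq2 1 of the 8 passed, and in limma-voom 0 did. Markers of other liver cells were also present, with summed levels of 284 to 335 CPM in the normal and 261 to 344 CPM in the restricted group for 4 endothelial markers, and of 942 to 1207 and 628 to 1650 CPM for 6 stellate cell markers. In such bulk samples, fewer cells of a type and less RNA per cell cannot be told apart. The Y-linked gene Kdm5d had 18.9 to 25.6 CPM in the normal libraries, 19.3 in restricted 5 and 0 in restricted 1 to 4. Levels of Cyp2c13, expressed mainly in male rat liver, ran from 154 to 2203 CPM in the normal group, with 1035 in restricted 5 and 1.29 to 8.29 in restricted 1 to 4, and Cux2, expressed mainly in female rodent liver, ran the other way with at least 13.6 CPM in restricted 1 to 4 against 1.07 to 5.48 in the other 6 libraries. By these markers likely sex ran with diet in 9 of 10 libraries, and the members' changes are also given for the 6 libraries with Kdm5d counts, of which restricted 5 is the only restricted one.

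All 9 sterol ring enzymes had lower mean levels in the restricted group, by 30.3% for Sc5d to 57.8% for Lss. The last enzyme of the chain, Dhcr7, and the decarboxylating dehydrogenase Nsdhl fell in edgeR's quasi-likelihood test at a Benjamini-Hochberg adjusted p under 0.05 over 12367 genes. That is 2 of 9 members, where 2.22% of all genes tested were called lower. For Dhcr7, Nsdhl and Msmo1 every restricted library lay below every normal library, which held for 3.44% of all genes tested. The median log2 fold change over the 9 members was −0.72, against 0.01 over all genes. All 5 restricted libraries lay below the arithmetic normal mean CPM for each of the 9 genes, a share not computed over all genes. Normal 4, the highest library for all 9, raised that mean. For Dhcr7, with a normal mean of 265 CPM, normal 1, 2, 3 and 5 also lay below it, at 219, 254, 197 and 242 CPM. This count alone therefore does not show that the groups part. Against the mean log2 CPM of the normal group, Cyp51 in restricted 3 (0.002) and Tm7sf2 in restricted 4 (0.010) lay slightly above. In edgeR 8 of 9 members had an unadjusted p under 0.05, where 9.93% of all genes did so in the lower direction. That count rested in part on 2 libraries: it was 5 of 9 without normal 4 (7.99% of all genes), 6 without restricted 5 (9.53%) and 4 without both (8.34%).

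**Figure D1:**
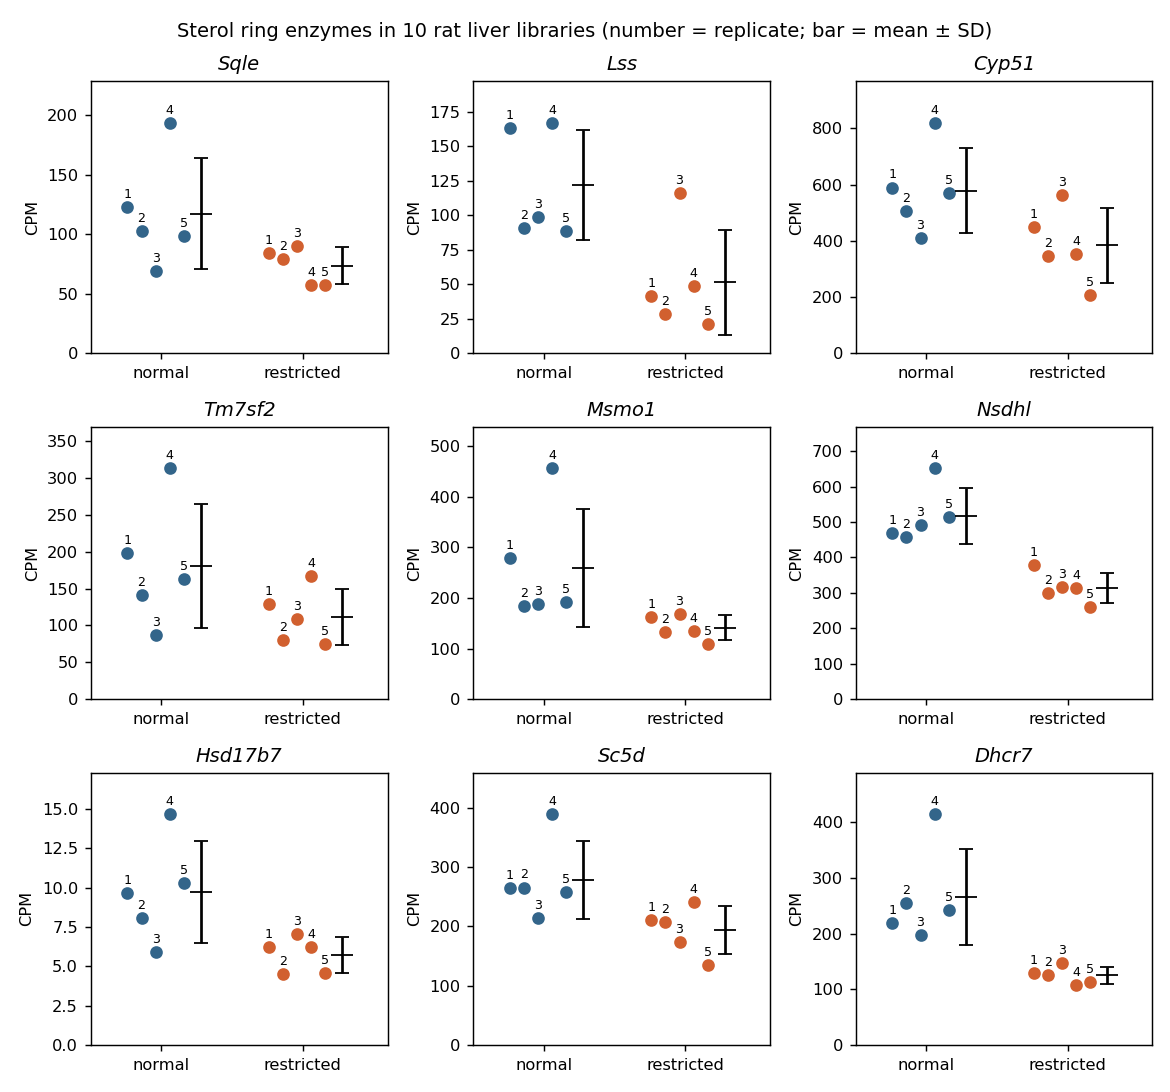
Level of each sterol ring enzyme in CPM (vertical axes, from 0) in the 5 normal and 5 restricted libraries; numbered points are libraries and bars are mean ± SD. The groups do not overlap for Msmo1, Nsdhl and Dhcr7, and normal 4 is the highest point of every panel.

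The promoters of the 3 genes whose groups did not overlap are shown, so that their letters can be read beside the changes. Each line is the 250 bases before the start in RefSeq's GRCr8 annotation, 5′ to 3′ on the gene's strand, with capitals for CCAAT, the letters that NF-Y binds, and GGGCGG, the letters that Sp1 binds, on either strand. Dhcr7 lies on the plus strand at chr1:208444184-208444433, Nsdhl on the plus strand at chrX:155817110-155817359 and Msmo1 on the plus strand at chr16:29746863-29747112.
Dhcr7: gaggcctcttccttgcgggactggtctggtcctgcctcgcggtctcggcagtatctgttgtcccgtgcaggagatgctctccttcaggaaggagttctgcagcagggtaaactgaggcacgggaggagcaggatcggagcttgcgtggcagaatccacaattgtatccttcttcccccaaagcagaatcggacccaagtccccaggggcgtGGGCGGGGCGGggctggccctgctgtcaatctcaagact
Nsdhl: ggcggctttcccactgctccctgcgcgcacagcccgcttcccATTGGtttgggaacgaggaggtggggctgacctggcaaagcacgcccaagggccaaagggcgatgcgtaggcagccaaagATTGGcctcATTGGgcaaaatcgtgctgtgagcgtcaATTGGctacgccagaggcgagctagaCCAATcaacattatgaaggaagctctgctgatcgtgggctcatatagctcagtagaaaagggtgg
Msmo1: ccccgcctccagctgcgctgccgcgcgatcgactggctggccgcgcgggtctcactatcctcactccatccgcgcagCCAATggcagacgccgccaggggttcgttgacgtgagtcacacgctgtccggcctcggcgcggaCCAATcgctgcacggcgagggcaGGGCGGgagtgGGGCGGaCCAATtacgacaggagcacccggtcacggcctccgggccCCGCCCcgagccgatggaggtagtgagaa
Nsdhl has 5 CCAAT matches and no GGGCGG, Dhcr7 has 2 GGGCGG matches that share 1 base and no CCAAT, and Msmo1 has 3 of each. Promoter windows of 300 bases (250 before and 50 after the start) were at hand for 8 members, all but Sqle. CCAAT was found in 6 of the 8 and in 37.5% of all 33469 promoters, and GGGCGG in 7 of the 8 and in 33.1% of all. The SREBP-type letters TCACNCCAC were found in 0 of the 8 and in 1.12% of all promoters, and the E-box CACGTG in Sc5d alone, against 6.42% of all. These matches describe letters in a window and say nothing of binding.

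Sqle, squalene monooxygenase, adds the oxygen that starts ring closure and is known as a control point of the pathway below mevalonate. It had 123, 102, 69.2, 194 and 98.2 CPM in normal 1 to 5 and 84.3, 79.1, 89.8, 57.3 and 57.3 CPM in restricted 1 to 5. The groups overlapped, because normal 3 lay below 3 of the restricted libraries. The difference on the log2 scale, −0.67 ± 0.25 (± SE) with a 95% interval of −1.23 to −0.12, did not pass (edgeR adjusted p 0.170).

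Lss, lanosterol synthase, folds oxidised squalene into the ring skeleton. It had 163, 90.9, 98.7, 167 and 88.9 CPM in normal 1 to 5 and 41.9, 28.5, 116, 48.9 and 21.4 CPM in restricted 1 to 5. Restricted 3 sat among the normal libraries while the other 4 restricted libraries lay below all of them, which gave Lss the widest spread of the 9 in the restricted group, a coefficient of variation of 73.7%. The log2 fold change was −1.25 ± 0.45 (95% interval −2.27 to −0.22; edgeR adjusted p 0.171), and without restricted 3 it was −1.79 and passed (adjusted p 0.0176). The gene length implied by its counts and FPKM, 13038 bases, was the longest of the 9, against 1711 to 5496 for the others.

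Cyp51, the cytochrome P450 that removes the first methyl group from lanosterol, had 589, 505, 409, 820.4 and 569.9 CPM in the normal libraries and 450.1, 345, 564, 353 and 207 CPM in the restricted libraries. Restricted 1 and 3 lay within the normal range and restricted 5 was lowest. For Cyp51 the log2 fold change was −0.59 ± 0.25 (95% interval −1.14 to −0.04; edgeR adjusted p 0.217). Tm7sf2, a sterol reductase that acts on the product of Cyp51, had 199, 141, 86.9, 313 and 163 CPM and 129, 80.0, 109, 167 and 74.8 CPM in the same order. Its normal libraries varied most of the 9, with a coefficient of variation of 46.8%, and normal 3 lay below 3 of the restricted libraries. Tm7sf2 had a log2 fold change of −0.69 ± 0.34 (SE; 95% interval −1.45 to 0.06), the only one of the 9 intervals to include 0 (edgeR adjusted p 0.284).

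Msmo1, Nsdhl and Hsd17b7 work in turn as a complex that strips the remaining methyl groups from the ring. Msmo1, the oxidase of the complex, had 278, 184, 188, 456 and 192 CPM in normal 1 to 5 and 163, 133, 169, 134 and 108 CPM in restricted 1 to 5. Its groups did not overlap, although the gap between normal 2 and restricted 3 was small beside the spread of the normal libraries, and it did not pass (log2 fold change −0.88 ± 0.26; 95% interval −1.44 to −0.31; edgeR adjusted p 0.0906).

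Nsdhl, the dehydrogenase that removes the oxidised carbon, had 469, 456, 492, 651 and 515 CPM in the normal libraries and 379, 301, 317, 313 and 261 CPM in the restricted libraries. Its levels were the steadiest of the 9 in the normal group, with a coefficient of variation of 15.2%, and it fell by 39.2% in mean CPM (log2 fold change −0.72 ± 0.13; 95% interval −0.99 to −0.44; edgeR adjusted p 0.0109). Hsd17b7, the reductase that ends each round, was the least abundant member, with 9.68, 8.08, 5.89, 14.7 and 10.3 CPM and 6.19, 4.48, 7.05, 6.23 and 4.55 CPM. Normal 3 fell among the restricted libraries, and the log2 fold change of −0.77 ± 0.23 did not pass (95% interval −1.26 to −0.28; edgeR adjusted p 0.0805; 0.0448 without normal 3).

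Sc5d, the desaturase that puts a further double bond into the ring, had 264, 265, 213, 389 and 257 CPM in normal 1 to 5 and 210.4, 208, 174, 241 and 135 CPM in restricted 1 to 5. Its log2 fold change was the closest to 0 of the 9, −0.52 ± 0.18 (SE; 95% interval −0.91 to −0.14; edgeR adjusted p 0.126), and restricted 4 lay above normal 3. Dhcr7, the reductase whose product is cholesterol, had 219, 254, 197, 414 and 242 CPM and 129, 125, 147, 108 and 113 CPM. The highest restricted library, restricted 3, was still below the lowest normal library, normal 3. Dhcr7 fell by 53.0% in mean CPM, with a log2 fold change of −1.09 ± 0.18 (95% interval −1.49 to −0.69; edgeR adjusted p 0.00880). A log2 fold change between −0.91 and −0.69 lay inside the 95% interval of each of the 9 members.

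Per length, the 9 enzymes covered a wide range of levels. In the authors' FPKM values, which scale counts by gene length and depth, Cyp51 had 185 ± 51.6 (mean ± SD, n = 5) in the normal group, Nsdhl 163 ± 26.8, Sc5d 157 ± 39.6 and Msmo1 152 ± 71.2. These 4 did not differ beyond their spread from their neighbours in that order. Tm7sf2 had 62.4 ± 30.3 FPKM and Dhcr7 52.4 ± 17.7 FPKM, again within each other's spread, and the range of Tm7sf2 reached that of Msmo1. Sqle had 21.3 ± 8.88, Lss 9.33 ± 3.28 and Hsd17b7 2.94 ± 1.02 FPKM. The libraries' ranges separated Dhcr7 from Sqle and Lss from Hsd17b7, and overlapped for the other 6 pairs of neighbours. In the restricted group the order was the same except that Sc5d stood above Nsdhl, at 111 ± 21.2 and 101 ± 13.8 FPKM. Lss made up 1.16 ± 0.253% of the summed FPKM of the 9 in the normal group and 0.753 ± 0.461% in the restricted group, and Dhcr7 6.49 ± 0.692% and 5.06 ± 0.869%. Both shares overlapped between the groups.

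**Figure D2:**
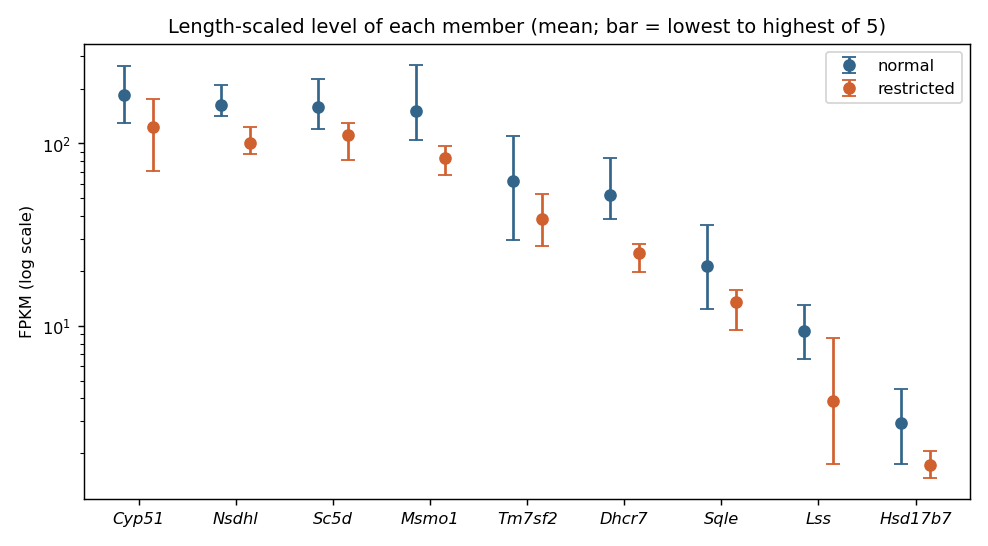
Level of each member in FPKM (log axis) in the order of the normal means; points are means of 5 libraries and bars run from the lowest to the highest library. Cyp51, Nsdhl, Sc5d and Msmo1 lead in both groups and Hsd17b7 is lowest in both.

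The 9 genes largely moved up and down together from library to library, most plainly in normal 4 and restricted 5. They parted in places. Against the mean log2 CPM of the normal group, restricted 4 had 0.01 for Tm7sf2 and −1.24 for Dhcr7. Restricted 3 had −0.004 for Lss and −0.80 for Dhcr7. Normal 4 had the highest level of the 10 libraries for 9 of 9 members, where it was highest for 8.77% of all genes tested. Restricted 5 had the lowest level for 7 of 9, where it was lowest for 13.8% of all genes; Hsd17b7 was lowest in restricted 2 and Dhcr7 in restricted 4. The summed level of the 9 was 2314, 2007, 1760.2, 3420.1 and 2136 CPM in normal 1 to 5 and 1594, 1304, 1694, 1428 and 982 CPM in restricted 1 to 5. The sums did not overlap between the groups, although normal 3 and restricted 3 were close. Within the normal group, normal 3 was lowest for 6 of 9 members. Each member followed the mean log2 level of the other 8 with Pearson's r from 0.83 (Tm7sf2) to 0.96 (Hsd17b7) over the 10 libraries. After taking out the group means, r ran from 0.65 (Lss) to 0.91 (Hsd17b7). These are descriptions over libraries that share their depth and scaling, and r was not computed without normal 4 and restricted 5.

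**Figure D3:**
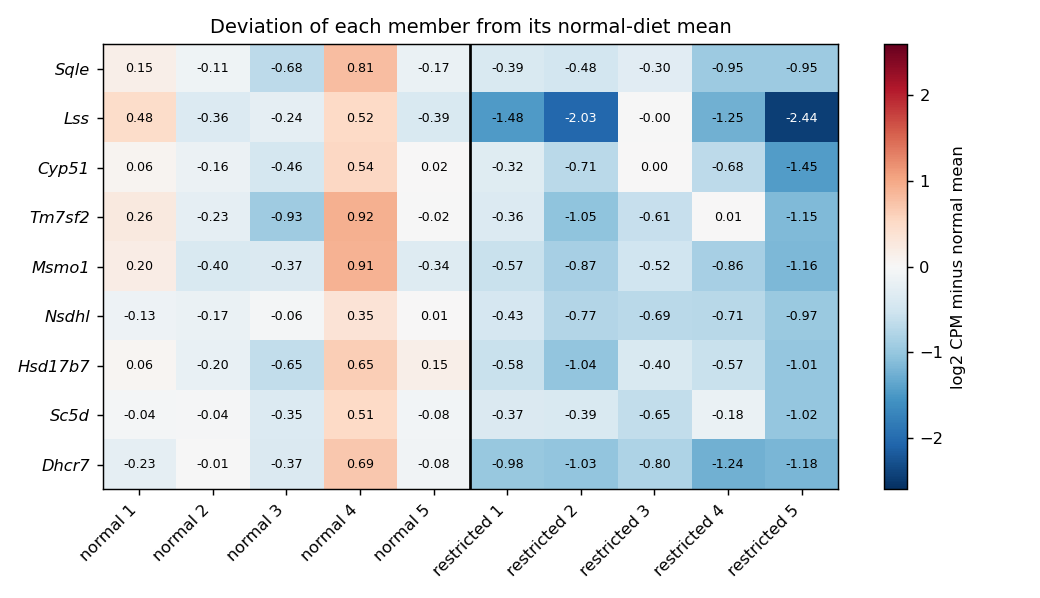
Log2 CPM of each member (rows) in each library (columns) minus that member's mean in the normal group. Normal 4 is above 0 in all 9 rows, by 0.35 to 0.92, and restricted 5 is below 0 in all 9, by 0.95 for Sqle to 2.44 for Lss.

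These 2 libraries carried part of the size of the change. Without normal 4 the log2 fold changes ran from −0.36 for Sc5d to −1.09 for Lss, and that of Tm7sf2 went from −0.69 to −0.39. Without normal 4 and restricted 5 together, an alternative chosen after the data were seen, they ran from −0.26 for Sc5d to −0.91 for Lss, with a median of −0.49. Nsdhl and Dhcr7 still passed there, at −0.56 (edgeR adjusted p 0.0322) and −0.84 (adjusted p 0.0108), where 1.2% of all genes were called lower.

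Among the 6 libraries with Kdm5d counts, restricted 5 against the 5 normal libraries gave larger changes for all 9 members, with a median of −1.23 (log2) and values from −0.99 for Nsdhl to −2.51 for Lss. Nsdhl (edgeR adjusted p 0.0294), Lss (0.0434) and Cyp51 (0.0454) passed in that fit, where 1.37% of all genes were called lower, and Dhcr7 did not (−1.23, adjusted p 0.137). The lone restricted library is assumed there to vary like the normal ones. Without restricted 5, the likely female restricted libraries against the normal ones gave smaller changes for all 9, from −0.42 for Sc5d to −1.06 for Dhcr7, and Nsdhl and Dhcr7 passed (adjusted p 0.0171 and 0.0172). With log2 CPM of Kdm5d as a covariate, 0 of 9 members passed in edgeR, where 0.154% of all genes were called lower, and 7 had an unadjusted p under 0.05, where 7.36% of all genes did so in the lower direction. The fitted changes were −0.99 for Nsdhl (adjusted p 0.0646) to −2.55 for Lss. Restricted 1 to 4 all had 0 Kdm5d counts, so the covariate fit too rests mainly on restricted 5 against the normal libraries. Restricted 5 also had the highest summed level of 8 Kupffer cell markers, 1920 CPM, against 784 to 1437 in restricted 1 to 4 and 680 to 937 in the normal libraries. Of those markers 0 of 8 passed in edgeR and limma-voom, 1 in DESeq2, and 4 had an unadjusted p under 0.05, where 20.1% of all genes did so in either direction. All 8 had a positive log2 fold change, with a median of 0.59. The 4 T and NK cell markers summed to 27.3 CPM in restricted 5, 2.94 to 15.3 in restricted 1 to 4 and 1.62 to 6.67 in the normal libraries. All 4 had a positive log2 fold change, with a median of 1.26. Of the 4, 0 passed in edgeR and limma-voom, 1 passed in DESeq2, and 2 had an unadjusted p under 0.05. Beside both marker lists, DESeq2 called 525 of all 12555 genes higher and 542 lower. The part of these cells in the sterol gene levels was not tested. With diet and likely sex joined in 9 of 10 libraries, the effects of the 2 on these genes cannot be told apart beyond these values.

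**Figure D4:**
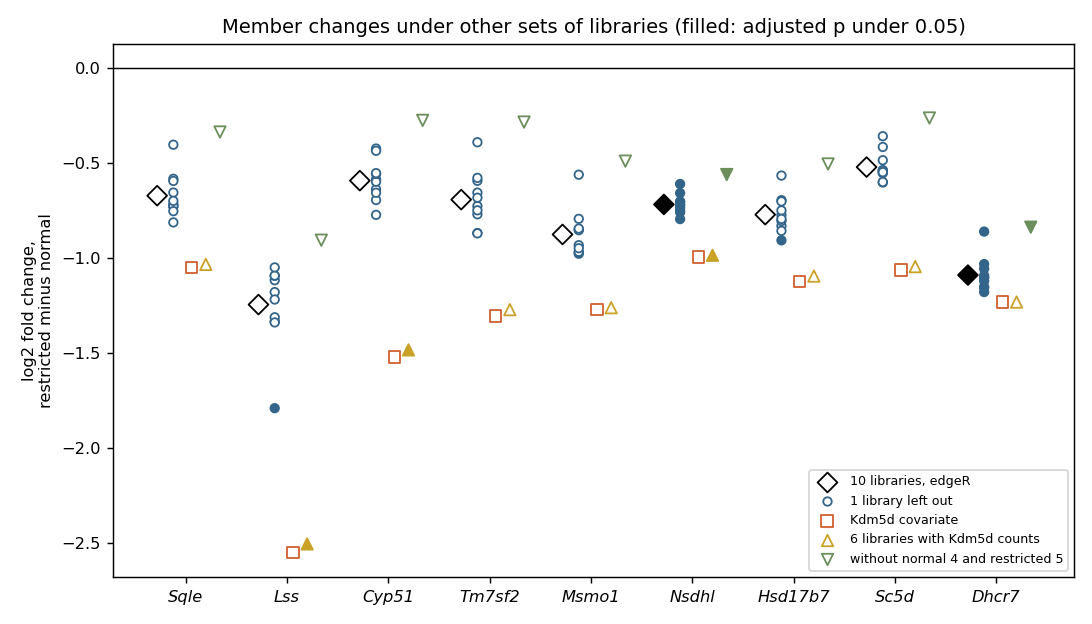
Log2 fold change of each member, restricted minus normal, in the fit of 10 libraries and under other sets of libraries or with Kdm5d as a covariate; filled symbols passed an adjusted p of 0.05 and open ones did not. All values lie below 0; Nsdhl and Dhcr7 are filled in every fit that left out 1 library, and Lss reaches −2.51 in the 6 libraries with Kdm5d counts.

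The count of members called was 2 with RLE scaling, upper-quartile scaling, no filter or a stricter filter, where 2.18%, 2.53%, 2.22% and 2.29% of all genes were called lower. With the replicate number as a block it was also 2, against 1.12% of all genes. With 1 library left out it was 2 or 3, where 1.95%, 1.51%, 1.25%, 0.978% and 0.889% of genes were called lower without normal 1 to 5, and 1.94%, 0.914%, 1.97%, 1.26% and 2.05% without restricted 1 to 5. DESeq2 called 4 of 9 members lower, adding Msmo1 (adjusted p 0.00909) and Hsd17b7 (0.0265), where it called 4.32% of all genes lower, and limma-voom called 2, against 2.28% of all genes. In the authors' deposited table, Lss and Dhcr7 met the rule of the design text (p under 0.05 and a log2 fold change beyond 1 in size), where 1.24% of all genes did so in the lower direction. In the authors' deposited table the adjusted p was 1.99e-06 for Dhcr7, 6.92e-06 for Nsdhl, 0.00909 for Msmo1, 0.0266 for Hsd17b7 and 0.0763 for Lss. At an adjusted p under 0.05, 4.32% of all genes were lower there. These values nearly equal those of DESeq2 and are not a separate result.

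Around the 9 members, the ring pathway holds further enzymes. Of 4 measured, 0 passed in edgeR or limma-voom, and 3 had an unadjusted p under 0.05 (20.1% of all genes, in either direction). DESeq2 called 1 lower and 1, Faxdc2, higher, where it called 4.32% of all genes lower and 525 of 12555 genes higher. Lbr was not analysed here. Ebp, the isomerase that works just before Sc5d, had a log2 fold change of −0.53 ± 0.19 (edgeR adjusted p 0.149). Faxdc2, a sterol oxidase related to Msmo1, had a positive value from a low level, 1.00 ± 0.27 (adjusted p 0.0641).

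The oxidations of the ring draw electrons from a P450 reductase and from cytochrome b5, and genes of that supply moved in opposite directions. Cyb5r3, the reductase that feeds cytochrome b5, fell from 188 ± 34.9 to 109 ± 15.6 CPM (SD, n = 5; log2 fold change −0.79 ± 0.14; edgeR adjusted p 0.00931), with no overlap between the groups. Por, the reductase that feeds Sqle and P450 enzymes such as Cyp51, rose from 139 ± 31.1 to 219 ± 44.9 CPM (0.66 ± 0.17; adjusted p 0.0484), where 1.87% of all genes were called higher. Por passed only narrowly: with 1 library left out it passed without normal 4 or restricted 5, and it missed the threshold without any other library (adjusted p up to 0.126) with upper-quartile scaling, with the Kdm5d covariate and among the 6 libraries with Kdm5d counts. Cyb5r3 missed it with the Kdm5d covariate (adjusted p 0.0821). The cytochromes themselves did not pass, with −0.07 ± 0.10 for Cyb5a (adjusted p 0.729) and −0.53 ± 0.16 for Cyb5b (adjusted p 0.0816), nor did Cyb5r1 (0.35 ± 0.22; adjusted p 0.386). The list thus held 1 member lower and 1 higher of 5 tested, where 2.22% of all genes were called lower and 1.87% higher.

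Upstream, between acetyl-CoA and squalene, the median log2 fold change over 9 tested genes was −0.88, beside the −0.72 of the ring steps. Of the 9, 3 fell and 0 rose, where 2.22% of all genes were called lower and 1.87% higher. They were Mvd, mevalonate diphosphate decarboxylase, by −1.48 ± 0.30 (edgeR adjusted p 0.0244), Pmvk, phosphomevalonate kinase, by −0.94 ± 0.21 (0.0330), and Fdft1, which makes squalene itself, by −0.88 ± 0.13 (0.00555). Hmgcs1, Mvk and Acat2, of the steps to and from mevalonate, had values of −0.88 ± 0.23, −0.68 ± 0.18 and −1.11 ± 0.38 that did not pass (adjusted p 0.0540, 0.0588 and 0.149), and Ggps1, which leads to a branch away from sterols, was the only one of the 9 with a positive value. Without restricted 2 or restricted 4, Mvd missed the threshold (adjusted p up to 0.0610), and Pmvk did so without normal 1, 4 or 5 or restricted 2, 4 or 5 (up to 0.0846). Fdft1 passed whichever single library was left out, and none of the 3 passed with the Kdm5d covariate (Fdft1 adjusted p 0.0946). Among the 6 libraries with Kdm5d counts Fdft1 passed, and Mvd (adjusted p 0.158) and Pmvk (0.0769) did not.

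**Figure D5:**
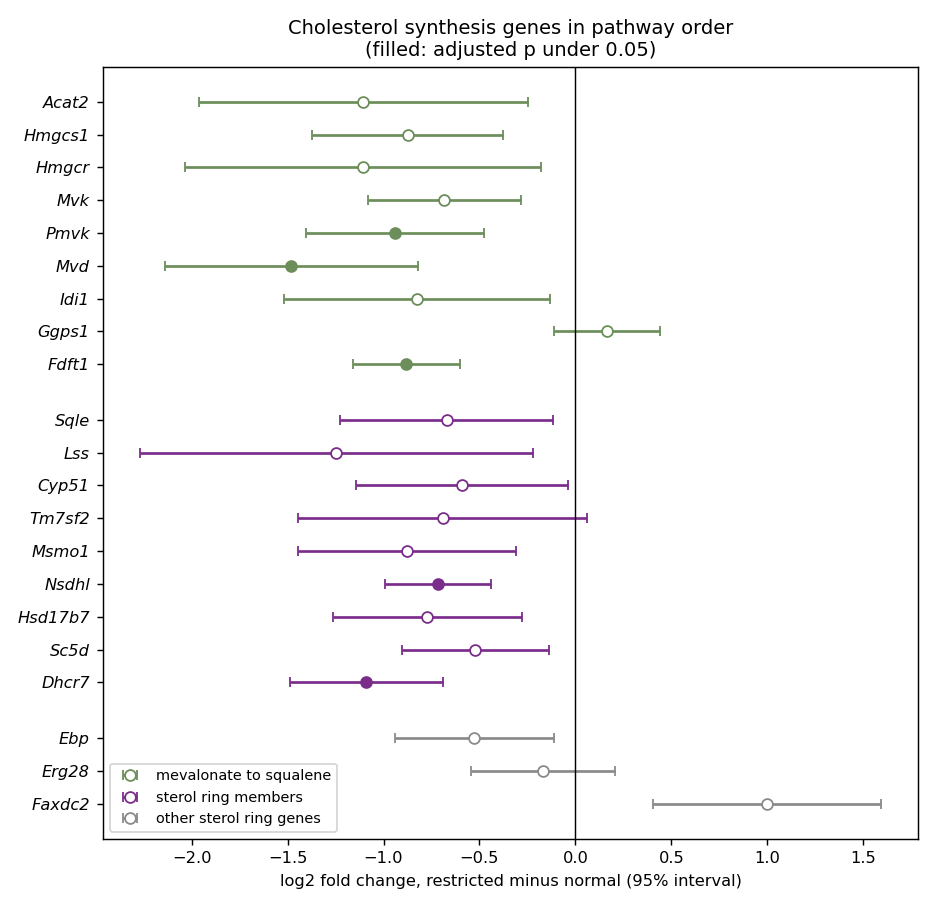
Log2 fold change, restricted minus normal, with 95% intervals for the genes from acetyl-CoA to squalene, the 9 ring members and 3 other ring genes, from top to bottom; filled points passed an adjusted p of 0.05 in edgeR. All 9 ring members and 8 of the 9 upstream genes lie below 0, and Faxdc2 lies to the right at 1.00.

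Of the genes that sense sterols, control SREBP2 or answer to it, 0 of 11 passed in edgeR or limma-voom. An unadjusted p under 0.05 was found for 3, against 20.1% of all genes. DESeq2 called 1 lower, where it called 4.32% of all genes lower, and the median log2 fold change was 0.02. Stard4, a sterol carrier, had a log2 fold change of −0.49 ± 0.20 (edgeR adjusted p 0.196). Srebf2, which encodes SREBP2 and is named after its values were seen, had 122 ± 19.0 and 107 ± 16.8 CPM (SD, n = 5; adjusted p 0.439). Of 8 ubiquitin ligase genes and partners that degrade sterol enzymes, 0 passed in edgeR, DESeq2 or limma-voom and 3 had an unadjusted p under 0.05, again beside 20.1% of all genes. The lead members were Ube2j2 (0.31 ± 0.12; edgeR adjusted p 0.167), Marchf6, the ligase known to destroy SQLE protein (0.25 ± 0.10; 0.182; −0.06 among the 6 libraries with Kdm5d counts), and Syvn1 (−0.21 ± 0.09; 0.229).

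Of 10 genes for the fates of sterols in liver that were tested in edgeR, 1 fell and 0 rose, where 2.22% of all genes were called lower. An unadjusted p under 0.05 was found for 5 of the 10, against 20.1% of all genes in either direction. DESeq2 called Abcg8 and Abcg5 lower and Ch25h higher, where it called 4.32% of all genes lower and 525 of 12555 genes higher. The gene called by edgeR was Abcg8, part of the pump that moves sterols into bile, which fell from 59.3 ± 21.5 to 20.4 ± 8.12 CPM (SD, n = 5; log2 fold change −1.54 ± 0.36; edgeR adjusted p 0.0479). With 1 library left out it passed only without normal 3, and its adjusted p reached 0.106. Its partner Abcg5 had −0.69 ± 0.22 (adjusted p 0.111), Cyp39a1, an oxysterol hydroxylase, −0.26 ± 0.09 (0.138) and Soat1, which esterifies cholesterol, 0.79 ± 0.29 (0.154). The Soat1 value rested in large part on restricted 5: it was 0.40 without that library, and it passed as higher with the Kdm5d covariate (1.80) and among the 6 libraries with Kdm5d counts (adjusted p 0.00211). Ch25h, which makes an oxysterol, had 2 to 8 counts in the normal and 8 to 28 in the restricted libraries; edgeR's filter left it out, and the DESeq2 log2 fold change was 1.62.

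Outside the 9 members, genes were ranked by how closely their log2 CPM followed the members' mean over the 10 libraries, as a description. Over 11673 genes with a symbol and a mean log2 CPM of at least 0, the highest Pearson's r was 0.97 (within groups 0.96) for a row whose symbol is Rusc1 but whose full name in the authors' table is farnesyl diphosphate synthase, an enzyme of the mevalonate pathway, so its identity is uncertain. Next came Pmvk (0.97, within groups 0.93), Ebp (0.96 and 0.96), Cryz, an NADPH-dependent quinone reductase (0.96 and 0.90), Acat2 (0.95 and 0.90) and Mvd (0.95 and 0.88). Cryz had a log2 fold change of −0.58 ± 0.16 and the row named Rusc1 one of −0.71 ± 0.24; neither passed (edgeR adjusted p 0.0660 and 0.127).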

How the data were processed

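Gene expression was measured by RNA sequencing in 10 rat liver libraries, 5 per group, grouped by their titles. The submitters' processing notes list bcl2fastq, fastp and HTSeq, with no role or order, and the build rn7; a Q30 filter and alignment by HISAT2 are named in the design text. Versions, annotation, strand setting and gene filter were not stated there. The deposited count columns are the authors' raw whole-number counts. The deposited FPKM columns are the authors' length-scaled and depth-scaled values, used here to describe levels only. Fold changes in the deposited table are ratios of the restricted to the normal group, with a deposited log2 column beside them. The deposited p-value columns come from a test by the authors that no source used here names. Their values for the members nearly equal those of DESeq2 here.

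The quasi-likelihood fit used edgeR 4.0.16 under R 4.3.3: filterByExpr (minimum count 10; 12367 of 12555 genes kept), TMM scaling, robust dispersions and the two-sided quasi-likelihood test, adjusted over all genes tested. SEs were derived from the fitted change and its F statistic. CPM are counts scaled to a common TMM-adjusted library size. Log2 CPM used a prior count of 2. The fit was checked on simulated data. For each pair of libraries in a group, counts differed by more than sampling noise (chi-square per degree of freedom at least 21.6). The labels do not say that libraries came from separate animals, so the p-values reflect only how these libraries spread, which may be technical. Shared replicate numbers do not pair the libraries. Named are the 9 members, each listed gene that passed and up to 3 further genes per list with the smallest p, the 6 genes most like the members' mean, and markers of sex; some genes that this rule names are not reported here. The members and lists were chosen with earlier results of these data known. Promoter sequences are from RefSeq, build GRCr8; the deposited table gives no coordinates. Alternatives were RLE and upper-quartile scaling, no filter, a filter of 1 CPM in 5 libraries, DESeq2 1.42.0, limma-voom (limma 3.58.1), the replicate number as a block, a covariate for Kdm5d, and leaving out libraries singly; the 6 libraries with Kdm5d counts, and leaving out normal 4 and restricted 5 together, were added after the data were seen.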

Additional observations from a re-analysis of the deposited data

Results flagged for a closer look

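In each group of 5 libraries, the highest or lowest library was compared with the rest by its gap to the nearest other library, over 74 groups of values; chance alone would mark about 1 in 20. It marked 5. Lss was 116 CPM in restricted 3, against 48.9 in the next restricted library, a gap just past the limit. Dhcr7 was 414 CPM in normal 4, against 254 in the next normal library. Soat1 was 26.2 CPM in restricted 5, against 10.7 in the next restricted library. Kdm5d was 19.3 CPM in restricted 5 and 0 in the other restricted libraries. Cyp2c13 was 1035 CPM in restricted 5, against 8.29 in the next restricted library.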

How the results depend on the processing

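The 20 alternatives refit the same libraries and are not independent checks. All 9 members kept a negative log2 fold change in each of them (180 values). Nsdhl passed in all but the fit with Kdm5d as a covariate, and Dhcr7 in all but that fit and the 6 libraries with Kdm5d counts. The members passing numbered 2, but 4 in DESeq2 and 0 with the Kdm5d covariate, and 2 to 3 with libraries left out. Over all genes 231 rose and 275 fell. The counts were 525 and 542 in DESeq2, 127 and 138 with the replicate number as a block, and 102 and 19 with the Kdm5d covariate. They were 632 and 170 in the 6 libraries with Kdm5d counts, a fit with 1 restricted library. With libraries left out they were 103 to 225 and 110 to 253. The causes of these differences were not tested. Where 2.22% of all genes were called lower and 1.87% higher, 5 genes of the other lists fell and 1 rose. That became 13 and 3 in DESeq2, 3 lower with the block, 0 lower with the Kdm5d covariate, 3 and 2 in the 6 libraries with Kdm5d counts, 0 higher with upper-quartile scaling, and 2 to 7 lower and 0 to 1 higher with libraries left out. Changes of sign occurred for Cyb5a (0.090 with the covariate, 0.078 in the 6 libraries) and Marchf6 (−0.078 and −0.065). Same-numbered libraries deviated together with correlations of −0.19 to 0.12 over genes, and 2 of 5 normal libraries matched their own number best, so the numbers were not taken to pair the libraries; under the block 2 of 9 members passed, and Mvd (adjusted p 0.105) and Pmvk (0.0556) did not. The order of FPKM levels was the same in CPM per kilobase. The lengths used there were derived from the same counts and FPKM, so this is not a separate check. Depth was lowest for Hsd17b7, with 73 to 222 counts a library, against 344 or more for the other 8 members.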
